A study of Anopheles gambiae with 36 samples.

Results

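Expression of GABA receptors in the ear of the malaria mosquito Anopheles gambiae was followed transcript by transcript, in both sexes and across the day. The members were all transcripts in the table of 6 genes: Rdl (AGAP006028), AGAP000038 (named GABA-A R), AGAP000039 (filed under GABA receptor activity without a name of its own), GABA-B-R1 (AGAP010281), GABA-B-R2 (AGAP004595) and GABA-B-R3 (AGAP009514). These made up 8 of 15863 transcripts, because Rdl was listed with 3 isoforms, RA, RB and RC, and each of the other 5 genes with 1. Every library came from the pooled second antennal segments of 35 mosquitoes, which house the Johnston's organ (JO), the auditory organ of the mosquito. Males and females were adults a few days old of the Kisumu laboratory strain, entrained to the same light/dark cycle, and were collected at 6 zeitgeber times (ZT0, ZT4, ZT8, ZT12, ZT16 and ZT20), of which ZT12 is the laboratory swarm time. Of 36 libraries, 3 per sex and time point, 35 were used, 17 male and 18 female, because the authors had set aside 1 male ZT12 library after a principal component analysis. They describe it as of low quality, with very low levels of mechanosensory genes. Total estimated counts were 11074632 to 18255021 per male library and 9341559 to 17815875 per female library. Values are normalised counts (estimated counts divided by median-of-ratios size factors) with SD over libraries, and they are not corrected for transcript length, so levels are compared between groups and not between genes.

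GABA is the main inhibitory transmitter of the insect nervous system, and it acts through both ion channels and G protein-coupled receptors. Ionotropic receptors are ion channels built from subunits around a pore. Rdl is the best known of these subunits and a target of the insecticide dieldrin. Metabotropic GABA-B receptors signal through G proteins, and in mammals a subunit that binds GABA pairs with another that couples to the G protein. In another mosquito, Culex quinquefasciatus, GABA is among the transmitters of nerve fibres that run from the brain to the ear.

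Genes taken here as markers of cells outside the JO had counts in both sexes and at unequal levels. The paper lists rhodopsins and Ir93a among the receptors expressed in the JO, and Orco among those of the female JO. It also cites auditory and mechanosensory roles of rhodopsins in Drosophila. The source of these transcripts was not tested here. All 8 opsin genes, taken as markers of photoreceptors of the eye, had counts. They took 1.39 to 13.7% of counts in male libraries (median 4.58%) but 9.37 to 45.6% in female libraries (median 27.0%). All 3 genes taken as markers of sensory neurons of the flagellum also had counts. IR25a had medians of 65.0 normalised counts in males and 47.2 in females, Ir93a of 577 and 512, and Orco, the olfactory co-receptor, lay between 0 and 127 normalised counts in males (median 3.78) and between 0 and 291 in females (median 28.5). The opsin level therefore moved with sex, and each member's overall sex difference is also given with the opsin level as a covariate. In only 4 male and 2 female libraries did the opsin share fall in the range reached by both sexes, so that fit has little to tell sex and opsin level apart, and a call lost in it does not show that the sexes did not differ at equal opsin level. Calls over all transcripts went from 8664 to 3967 in it. No marker of the JO neurons themselves was paired with an identifier in the tables used here.

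Between the sexes, 5 of the 8 transcripts differed in edgeR's quasi-likelihood test with time point as a covariate (adjusted p under 0.05), 2 higher and 3 lower in males. This share is close to that of the whole table, in which 67.2% of 12898 transcripts tested were called, 33.5% as higher and 33.7% as lower in males. The median log2 fold change of male against female was -0.0074 over the 8 transcripts and -0.0039 over all transcripts. In pooled tissue, fewer cells of a type and less RNA per cell cannot be told apart.

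AGAP000039-RA separated the sexes completely. Female libraries held 483 to 1277 normalised counts (median 825, mean 852 ± 252, n = 18) and male libraries 2.63 to 81.5 (median 10.8, mean 25.2 ± 24.6, n = 17). Every female library lay above every male library, as was the case for 5.14% of all transcripts tested. The male to female log2 ratio fitted over all time points was -5.15 (SE, standard error, 0.39, adjusted p = 5.98e-13, edgeR), and 0.566% of transcripts had one as low or lower. The spread also differed, since the highest male library held 30.9 times the lowest, and the highest female library 2.64 times the lowest.

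The separation of AGAP000039-RA was present at each time point. At ZT0 the females had 614, 811 and 510.0 normalised counts and the males 41.4, 81.5 and 5.86. At ZT20 the females had 838, 653 and 1277 and the males 9.14, 10.8 and 6.09. The sexes did not overlap at any of the 6 time points, which held for 8.71% of transcripts in the direction of higher female values. By time point the log2 fold change ranged from -3.88 at ZT0 (SE 0.81, adjusted p = 0.000753, edgeR) to -6.69 at ZT20 (SE 0.95, adjusted p = 1.25e-05, edgeR). It was called at all 6 time points, as were 6.89% of transcripts lower in males. Called as lower in males at ZT0, ZT4, ZT8, ZT12, ZT16 and ZT20 were 15.8, 14.3, 14.9, 15.2, 12.9 and 14.0% of transcripts, respectively. The mean of the males was highest at ZT0 and lowest at ZT20, while that of the females was lowest at ZT0 and highest at ZT16, but the interaction of sex and time was not called (edgeR adjusted p = 1).

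**Figure D1:**
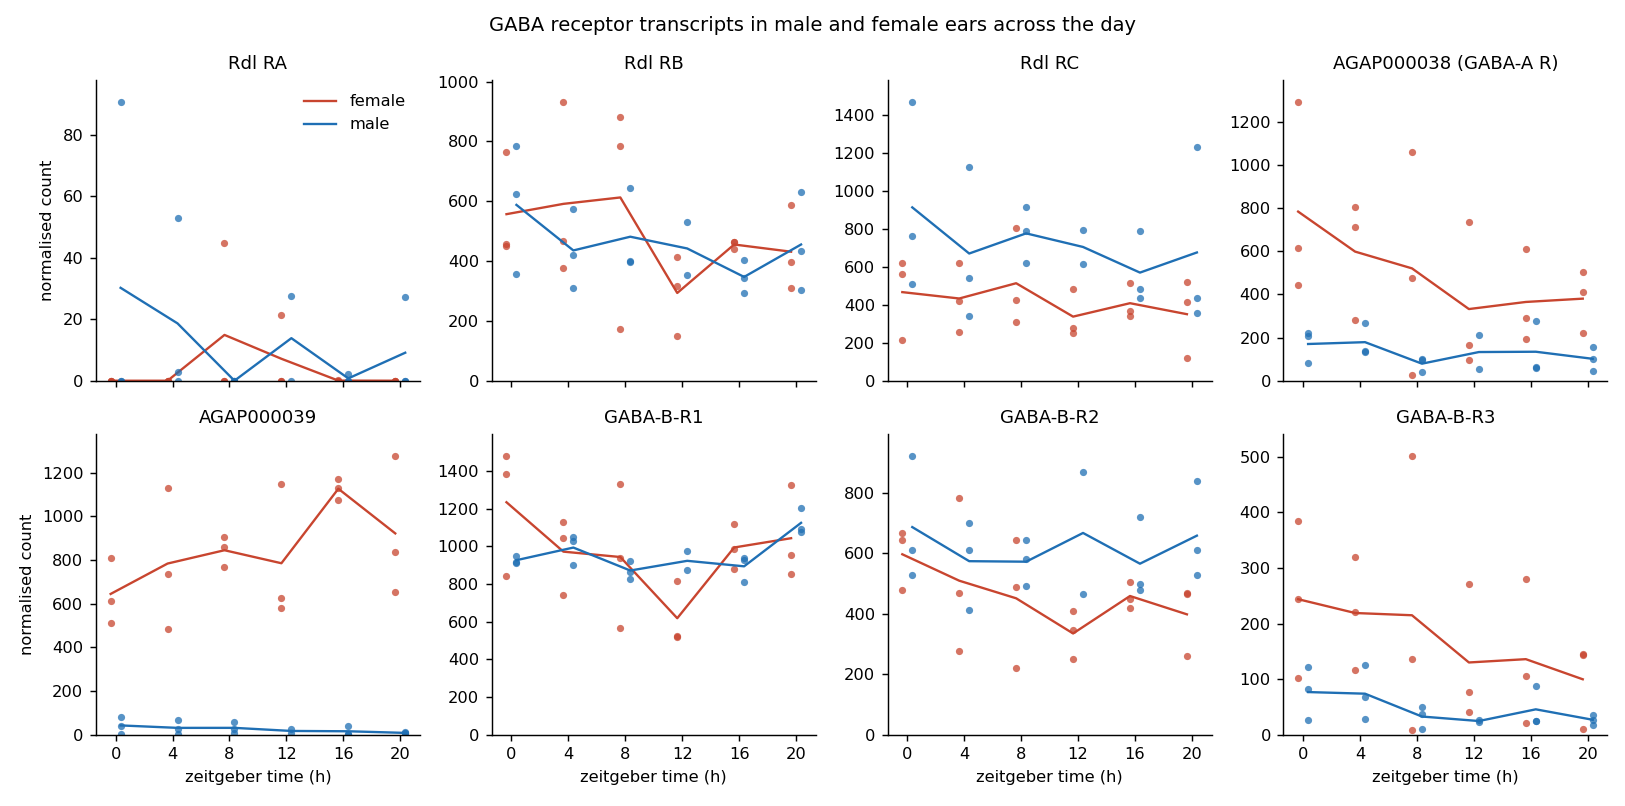
Normalised counts of the 8 GABA receptor transcripts (vertical axes, starting at 0) against zeitgeber time in hours (horizontal axes), with 1 point per library and lines through the mean of each sex and time point (3 libraries each, 2 for males at ZT12). AGAP000039 shows male points of at most 81.5 beneath female points of at least 483, whereas the sexes overlap for the 7 other transcripts.

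AGAP000038-RA, named as a GABA-A receptor subunit, was also lower in males but with overlap. Female libraries ranged from 26.6 to 1291 normalised counts (median 458, mean 497 ± 337, n = 18) and male libraries from 41.1 to 278 (median 101, mean 133 ± 78.2, n = 17). Of the female libraries 13 of 18 lay above every male library, and 1, ZT8 replicate 2, lay below them all. Males against females, the log2 fold change came to -1.86 (SE 0.35, adjusted p = 2.53e-05, edgeR). With the opsin level as a covariate the difference was not called (log2 fold change -0.53, edgeR adjusted p = 0.545), whereas that of AGAP000039-RA was (log2 fold change -4.05, edgeR adjusted p = 2.23e-05).

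Of the 3 isoforms of Rdl, RC was the one called between the sexes. AGAP006028-RC was higher in males, with 343 to 1471 normalised counts (median 622, mean 720.4 ± 320.2, n = 17) against 118 to 808 in females (median 419, mean 419 ± 172, n = 18). Of the male libraries 4 lay above every female library, and 7 female libraries lay below every male library. Its log2 fold change came to 0.81 (SE 0.20, adjusted p = 0.00087, edgeR), and to -0.0092 with the opsin level as a covariate (edgeR adjusted p = 0.99).

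AGAP006028-RB had 292 to 783 normalised counts in males (median 405, mean 459 ± 145, n = 17) and 149.9 to 932 in females (median 454, mean 490.2 ± 221, n = 18). The female range enclosed the male range, and no difference was called (log2 fold change -0.05, SE 0.18, adjusted p = 0.821, edgeR), nor with the opsin level as a covariate (-0.10, edgeR adjusted p = 0.868). AGAP006028-RA was at or near 0 in most libraries. It rounded to 0 in 11 of 17 male and 16 of 18 female libraries, and it had more than 3 estimated counts in 5 male and 2 female libraries, with a highest normalised count of 90.7 in a male at ZT0. Its log2 fold change of 3.01 had an SE of 1.48 and was not called (edgeR adjusted p = 0.0735), and it was 1.12 with the opsin level as a covariate (edgeR adjusted p = 0.743). It was called without female ZT8 replicate 1 (4.59), female ZT12 replicate 1 (4.11), male ZT8 replicate 1 (3.49), 2 (3.52) or 3 (3.52), or male ZT12 replicate 1 (3.45). Summed over its isoforms, Rdl had 1192 ± 441 normalised counts in males and 913 ± 359 in females, a log2 fold change of 0.42 (edgeR adjusted p = 0.0295), in which the part of the opsin level was not tested.

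**Figure D2:**
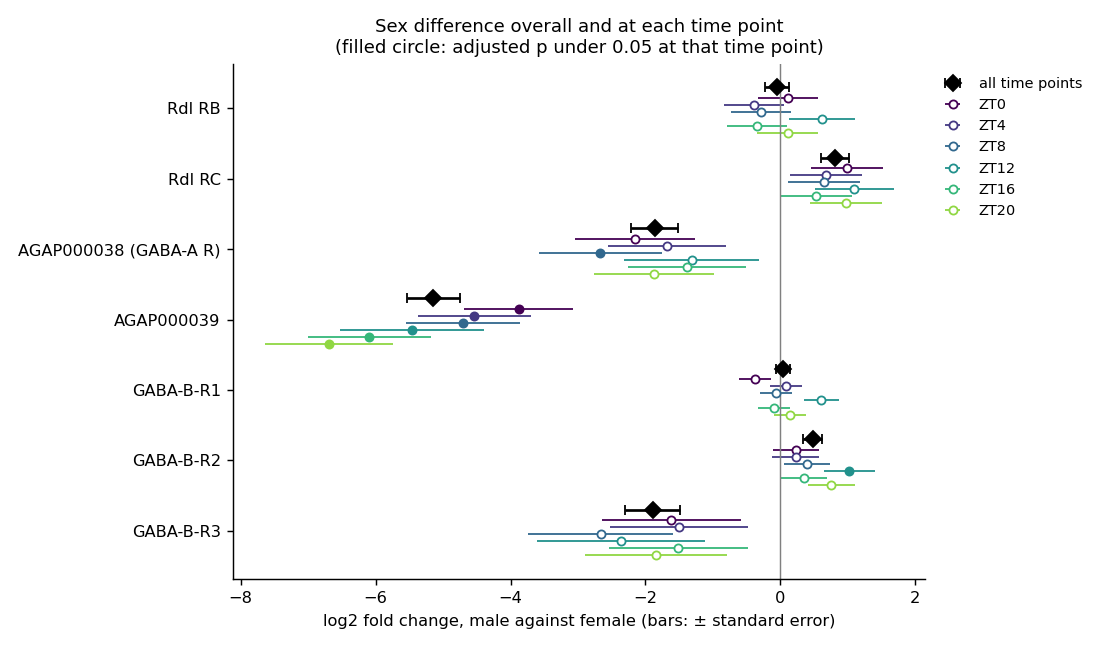
Log2 fold change of male against female (horizontal axis) for 7 GABA receptor transcripts, with diamonds for all time points together, circles for single time points, bars of ± 1 standard error, and filled circles where the edgeR adjusted p was under 0.05. AGAP000039 is filled at all 6 time points, AGAP000038 at ZT8 and GABA-B-R2 at ZT12; Rdl RA, with errors of up to 4.25, is left out.

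Isoforms of a gene share reads, so the makeup of Rdl was compared as well as the level of each isoform. AGAP006028-RC made up 43.5 to 66.4% of Rdl counts in males (mean 59.2 ± 6.86%, n = 17) and 27.6 to 64.1% in females (mean 46.3 ± 10.7%, n = 18). RB made up 33.6 to 54.8% in males (mean 39.5 ± 6.44%) and 33.3 to 72.4% in females (mean 53.3 ± 11.2%). RC was the more abundant of the pair in 15 of 17 male libraries and in 7 of 18 female libraries.

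In a 2-sided permutation test of the library shares the sexes differed for RC by 12.8 percentage points (p = 0.00028) and for RB by 13.7 percentage points in the other direction (permutation p = 0.00016). RB and RC made up nearly all of Rdl, so these values are not separate results. The test was run on Rdl alone, without time point or adjustment, so no share over other genes stands beside it. The edgeR test of isoform use, which weighs each isoform against its gene, called none of the 3 isoforms (adjusted p = 0.132 for RA, 0.189 for RB and 0.269 for RC), against 20.8% of 3080 isoforms in the table. At an unadjusted p under 0.05 it picked RA alone, which was called without female ZT8 replicate 1 (edgeR adjusted p = 0.00478) or without female ZT12 replicate 1 (edgeR adjusted p = 0.0224). The gene-level form of the edgeR test, chosen after the values were seen, called Rdl (adjusted p = 0.0142), as it did 43.3% of 1249 genes.

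The makeup of Rdl moved with the opsin level among female libraries. In females the RB share rose with the log2 opsin level over 18 libraries (Pearson r = 0.80, permutation p = 7e-05, adjusted p = 0.00116 over 58 relations; Spearman rho = 0.82, permutation p = 9e-05, adjusted p = 0.00174), and r was 0.71 without the 2 libraries farthest from the median opsin level. In males it had r = 0.53 over 17 libraries (permutation p = 0.0275, adjusted p = 0.084) and rho = 0.33 (permutation p = 0.195, adjusted p = 0.323), with r = 0.48 without the 2 farthest libraries. After the mean of each time point was subtracted, r was 0.81 in females and 0.57 in males. With the opsin level as a covariate, an alternative added after the values were seen, the gene-level test no longer called Rdl (edgeR adjusted p = 0.90).

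**Figure D3:**
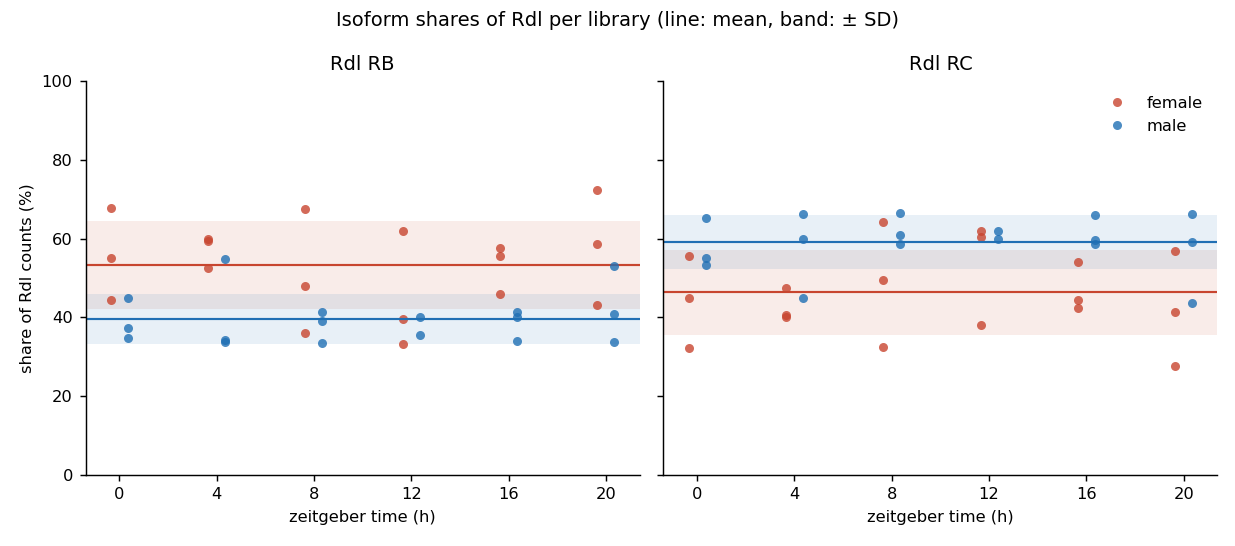
Share of Rdl counts taken by isoforms RB (left) and RC (right), in percent (vertical axis), against zeitgeber time in hours (horizontal axis), with 1 point per library and the mean ± SD of each sex as line and band. Male points for RC lie between 43.5 and 66.4% and female points between 27.6 and 64.1%, so the sexes overlap although their means differ.

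The metabotropic receptors went in different directions. GABA-B-R1, named after the mammalian subunit that binds GABA, was not called between the sexes, and its male values lay within a narrower range. Male libraries had 813 to 1204 normalised counts (median 928, mean 957 ± 103, n = 17) and female libraries 516 to 1478 (median 945, mean 967 ± 289, n = 18). The coefficient of variation was 10.8% in males, the lowest of the 8 transcripts in either sex, and 29.9% in females. Of the female libraries, 4 lay above and 4 below every male library, and no difference was called (log2 fold change 0.03, SE 0.10, adjusted p = 0.782, edgeR), nor with the opsin level as a covariate (0.28, edgeR adjusted p = 0.324).

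GABA-B-R2, named after its mammalian partner subunit, was higher in males. Male libraries had 412 to 920.4 normalised counts (median 609, mean 617 ± 149, n = 17) and female libraries 220.0 to 783 (median 466, mean 458 ± 155, n = 18). The ranges overlapped widely, with 3 male libraries above every female library and 6 female libraries below every male library. Males exceeded females by a log2 fold change of 0.48 (SE 0.14, adjusted p = 0.00335, edgeR), which was 0.079 with the opsin level as a covariate and was then not called (edgeR adjusted p = 0.858).

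GABA-B-R3, a further metabotropic receptor, was lower in males and the most variable of the metabotropic receptors. Female libraries ranged from 8.19 to 501 normalised counts (median 139.7, mean 174 ± 137, n = 18), a 61.2-fold range, and male libraries from 11.2 to 126 (median 28.1, mean 48.1 ± 36.1, n = 17), an 11.3-fold range. Of the female libraries 10 lay above every male library and 2 below every male library. Its log2 fold change of -1.89 (SE 0.41, adjusted p = 0.000165, edgeR) was -0.15 with the opsin level as a covariate and was then not called (edgeR adjusted p = 0.903).

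At single time points fewer transcripts were called, with 3 libraries a side and 2 for males at ZT12. Apart from AGAP000039-RA there was 1 call at ZT8, where 29.2% of all transcripts were called, and 1 at ZT12, where 28.7% were. At ZT0, ZT4, ZT16 and ZT20 the percentages of all transcripts called were 31.9, 27.3, 24.8 and 26.7%, and AGAP000039-RA was the only member among them. The edgeR interaction of sex and time called 0 of the 8 members (0 at an unadjusted p under 0.05, against 4.52% of all transcripts), where 0.00775% of all transcripts were called, and DESeq2 called 0 members against 0.636%, so no member was shown to differ between the sexes more at one time than at another.

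The call at ZT8 was AGAP000038-RA. Its females had 474, 26.6 and 1061 normalised counts and its males 96.3, 41.1 and 99.5, so that 1 female library lay below all 3 males. Opsins took 27.2, 26.6 and 39.0% of counts in these female libraries and 6.43, 7.99 and 3.43% in the male ones, and their part in the result was not tested. The log2 fold change of -2.67 (SE 0.91, adjusted p = 0.0292, edgeR) was not called without female ZT8 replicate 3 (-1.70) or without male ZT8 replicate 1 (-2.83), 2 (-2.36) or 3 (-2.88). At ZT0 it was -2.16 and not called (edgeR adjusted p = 0.0641), although every female library lay above every male there, as at ZT4 and ZT20. Of all transcripts, 24.7% at ZT0, 22.4% at ZT4 and 22.0% at ZT20 were apart in this way. The ZT0 value was called without female ZT0 replicate 2 (-2.54), female ZT8 replicate 2 or 3 (both -2.26) or female ZT12 replicate 2 (-2.26).

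The call at ZT12 was GABA-B-R2. Its 2 male libraries had 869 and 464 normalised counts and its female libraries 249.7, 345 and 409, without overlap, as for 25.2% of all transcripts with males above at ZT12. Opsins took 1.39 and 2.44% of counts in these male libraries and 9.37, 40.7 and 13.6% in the female ones, and their part in the result was not tested. Its log2 fold change at ZT12 was 1.02 (SE 0.38, adjusted p = 0.0452, edgeR). The call was lost in 19 of 35 fits with 1 library left out: male ZT12 replicate 1 (0.53), female ZT12 replicates 1 (0.79) and 2 (1.02), and, with values between 0.98 and 1.02, female ZT0 replicates 1, 2 and 3, ZT4 3, ZT8 3, ZT16 2 and 3 and ZT20 1, 2 and 3, and male ZT0 replicate 2, ZT4 2, ZT8 1 and 3, ZT16 1 and ZT20 3. It was also lost with DESeq2's size factors (0.99, edgeR adjusted p = 0.0591) and with no filter on low counts (1.02, edgeR adjusted p = 0.0512).

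GABA-B-R1 likewise did not overlap at swarm time, with 972 and 873 normalised counts in males and 516, 816 and 523 in females. Its log2 fold change there was 0.61 (SE 0.26, adjusted p = 0.0832, edgeR), which was called without female ZT12 replicate 2 (0.85). At ZT0 the value was -0.37 (edgeR adjusted p = 0.237), called without female ZT0 replicate 2 (-0.67). GABA-B-R3 at ZT8 had a log2 fold change of -2.66 (edgeR adjusted p = 0.0627), called without female ZT8 replicate 2 (-3.33), female ZT12 replicate 2 (-2.76) or female ZT20 replicate 1 (-2.76). The Rdl isoforms were not called at any time point, although RC had positive values at all 6, the lowest being 0.53 at ZT16. Without overlap were also GABA-B-R3 (females above) and RC (males above) at ZT12, RB (females above) at ZT16 and GABA-B-R2 (males above) at ZT20. Of all transcripts, 27.7% had females above at ZT12, 22.2% had females above at ZT16 and 20.3% had males above at ZT20.

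Across the day within a sex, no member was called by edgeR. In males 0 of 8 transcripts passed (1 at an unadjusted p under 0.05, against 9.25% of all transcripts), where 1.67% of 12360 transcripts did, and in females 0 of the 7 that passed the filter on low counts (0 at an unadjusted p under 0.05, against 9.09%), where 1.23% of 12322 did. DESeq2 called 1 member in males, against 5.01% of transcripts, and 0 in females, against 5.18%. That member was GABA-B-R1, at 926 ± 19.6 normalised counts at ZT0, 993 ± 81.2 at ZT4, 871 ± 48.2 at ZT8, 893.6 ± 70.4 at ZT16 and 1124 ± 69.6 at ZT20 (SD, n = 3 each), with 972 and 873 at ZT12. The 3 ZT20 libraries lay above every other male library. The share of all transcripts with a time point apart in this way was not computed, so this is given as values only. For AGAP010281-RA the time effect had an adjusted p of 0.266 in edgeR, 0.259 in edgeR with the opsin level as a covariate and 0.00487 in DESeq2. The paper followed a DESeq2 time test with a test of rhythm (JTK_CYCLE). Of its male genes with a potential neuromodulatory role, it reported the octopamine receptor AgOAMB alone as cycling. No test of rhythm was run here.

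Swarm time against the mean of the 5 other time points gave 0 called members in males, against 0.922% of all transcripts, and 0 in females, against 1.66%. At an unadjusted p under 0.05 edgeR picked 0 of 8 members in males, against 10.9% of all transcripts, and 1 of 7 in females, against 13.4%, and no other tool was run on this contrast. The 1 picked was GABA-B-R1, at a share of members near that of all transcripts. In females GABA-B-R1 averaged 618 ± 171 normalised counts at ZT12 (SD, n = 3), the lowest of its 6 means, which lay between 943 and 1234 at the other times. Against the other times its log2 fold change was -0.76 (SE 0.26, adjusted p = 0.191, edgeR). Opsin counts in the 3 female ZT12 libraries were 9.37, 40.7 and 13.6% of the total, the first and last of which are the lowest female values, and their part in the result was not tested.

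All 7 members tested in females had negative values in this contrast, from -0.15 for AGAP000039-RA to -0.86 for AGAP006028-RB, and the same 3 ZT12 libraries enter each of them. Their median was -0.54, against -0.010 over all transcripts tested. No member was called, and the share of all transcripts with negative values was not computed. The part of the opsin level in these values was not tested. In males the values of the 7 transcripts other than AGAP006028-RA lay between -0.93 and 0.12.

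The relation to the opsin level within a sex was tested with time point as a covariate. No member was called in males (1.37% of all transcripts were) or in females (3.77%), and at an unadjusted p under 0.05 edgeR picked 2 of 8 members in males, against 15.8% of all transcripts, and 5 of 7 in females, against 21.7%. Per doubling of the opsin level, AGAP000038-RA had a slope of 1.23 on the log2 scale in females (SE 0.44, adjusted p = 0.118, edgeR) and 0.41 in males (SE 0.16, adjusted p = 0.242, edgeR). GABA-B-R3 had a slope of 1.52 in females (SE 0.57, adjusted p = 0.137, edgeR) and 0.42 in males (SE 0.17, adjusted p = 0.25, edgeR). AGAP006028-RC had the opposite sign, at -0.66 in females (SE 0.28, adjusted p = 0.19, edgeR) and -0.25 in males (SE 0.15, adjusted p = 0.461, edgeR).

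GABA-B-R1, which was not called between the sexes, had a slope of 0.43 in females (SE 0.15, adjusted p = 0.108, edgeR) and 0.03 in males (SE 0.03, adjusted p = 0.703, edgeR). With the replicate block, 2 slopes in females were called, 2.25 for AGAP000038-RA (edgeR adjusted p = 0.0223) and 0.81 for GABA-B-R1 (AGAP010281-RA, edgeR adjusted p = 0.00775). That fit called 933 transcripts in all, 693 of them with positive slopes, against 465 without the block. The 2 members also went together across female libraries (r = 0.80), so their slopes are not separate results. For AGAP000039-RA the sign was not the same in both sexes, at -0.37 in females (SE 0.17, adjusted p = 0.23, edgeR) and 0.66 in males (SE 0.32, adjusted p = 0.333, edgeR). Without female ZT8 replicate 2 the value of AGAP000038-RA in females was called (1.13, edgeR adjusted p = 0.0408), and without female ZT12 replicate 1 that of AGAP000039-RA was (-0.59, edgeR adjusted p = 0.0377).

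The opsin share of 4 male and 2 female libraries fell within the range reached by both sexes, 9.37 to 13.7%. In these libraries AGAP000039-RA stood at 81.5, 67.1, 40.1 and 6.09 normalised counts in the males and at 626 and 1149 in the females. AGAP000038-RA stood at 222, 267, 278 and 157 in the males and at 165 and 95.5 in the females. GABA-B-R3 stood at 123, 126, 88.1 and 35.9 in the males and at 77.1 and 41.0 in the females. The females lay above the males for the first of these transcripts, and the sexes overlapped for the other 2. GABA-B-R1 had 912, 1028, 928 and 1204 in the males and 516 and 523 in the females. GABA-B-R2 had 611, 412, 479 and 609 in the males and 249.7 and 409 in the females. The males lay above the females for both, for GABA-B-R2 only by 412 against 409. The sexes overlapped for the 3 Rdl isoforms. Both female libraries were from ZT12, and no test was made on so few libraries. The share of all transcripts that lay apart in these libraries was not computed, so the separations are given as values only.

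**Figure D4:**
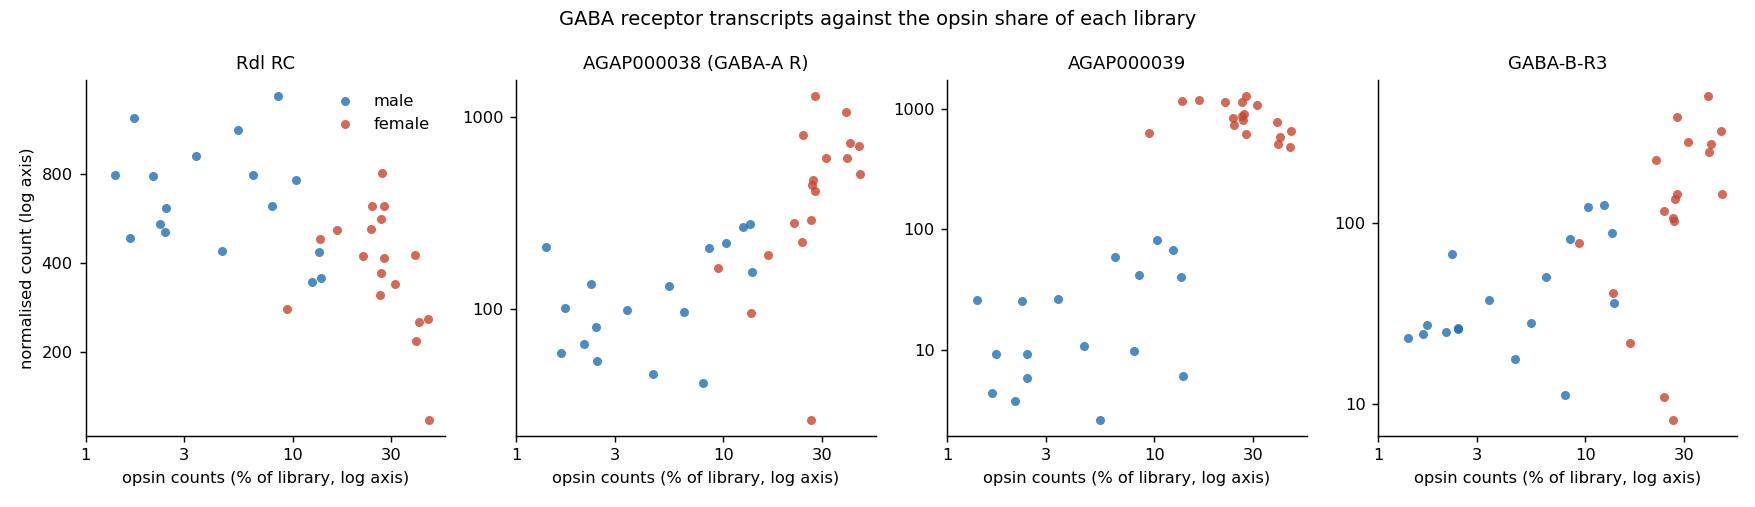
Normalised counts of 4 GABA receptor transcripts (vertical log axes) against the summed opsin counts as a percentage of each library (horizontal log axes), with 1 point per library, 17 male and 18 female. Males span 1.39 to 13.7% and females 9.37 to 45.6% on the horizontal axis. Where those ranges meet there are 4 male and 2 female libraries. Of the 4 transcripts plotted, AGAP000039 is the one whose sexes lie apart there, with no share over all transcripts computed.

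Among the members, AGAP000038-RA and GABA-B-R3 went together across libraries in both sexes, on log2 values with a pseudocount of 1. The correlation was r = 0.85 in 18 female libraries (permutation p = 1e-05, the smallest that the resamples can give, adjusted p = 0.00058; rho = 0.85, permutation p = 3e-05, adjusted p = 0.00145) and 0.77 without the 2 libraries farthest from the median. In 17 male libraries it was r = 0.81 (permutation p = 0.00011, adjusted p = 0.00128; rho = 0.77, permutation p = 0.00053, adjusted p = 0.00551) and 0.74 without the 2 farthest. Within time points r was 0.86 in females and 0.78 in males.

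AGAP006028-RC and GABA-B-R2 also went together in both sexes. In males r was 0.79 (permutation p = 0.00023, adjusted p = 0.00215; rho = 0.78, permutation p = 0.00035, adjusted p = 0.00507) and 0.66 without the 2 farthest libraries. In females r was 0.75 (permutation p = 0.00026, adjusted p = 0.00215; rho = 0.71, permutation p = 0.00154, adjusted p = 0.0104) and 0.71 without the 2 farthest. Within time points r was 0.84 in males and 0.80 in females. GABA-B-R2 also went with AGAP006028-RB, which was not called between the sexes. That correlation was r = 0.85 in females (permutation p = 2e-05, adjusted p = 0.00058; rho = 0.85, permutation p = 5e-05, adjusted p = 0.00145) and 0.72 in males (permutation p = 0.00116, adjusted p = 0.00612; rho = 0.72, permutation p = 0.00179, adjusted p = 0.0104), and without the 2 farthest libraries it was 0.75 and 0.65.

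AGAP000039-RA followed GABA-B-R3 in males, with r = 0.76 over 17 libraries (permutation p = 0.00053, adjusted p = 0.00307; rho = 0.64, permutation p = 0.00695, adjusted p = 0.0336), 0.63 without the 2 farthest libraries and 0.90 within time points. In females r was -0.36 (permutation p = 0.146, adjusted p = 0.273) and rho -0.46 (permutation p = 0.0591, adjusted p = 0.137). The difference between the sexes in this relation was not tested. All points of a sex share its opsin gradient, whose part in these relations was not tested.

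**Figure D5:**
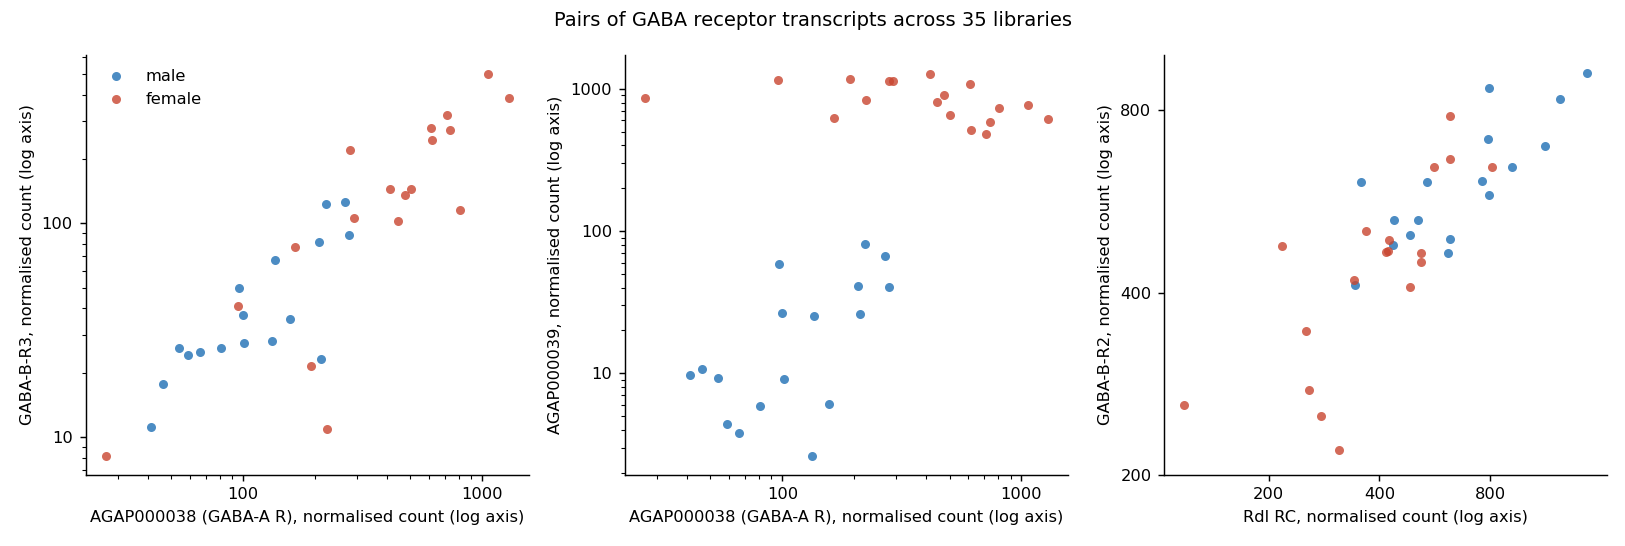
Normalised counts of pairs of GABA receptor transcripts on log axes, GABA-B-R3 against AGAP000038 (left), AGAP000039 against AGAP000038 (middle) and GABA-B-R2 against Rdl RC (right), with 1 point per library and colours for sex. The left and right panels show points of both sexes along a common rising band, and in the middle panel the females lie at 483 or above on the vertical axis and the males at 81.5 or below.

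The transcripts most like each member were sought by the correlation of log2 normalised counts over 35 libraries after each sex's mean was subtracted, among 10276 transcripts with a mean of at least 50 normalised counts (10275 for Rdl). For AGAP000038-RA they were AGAP013176-RA (r = 0.98) and AGAP005674-RB (r = 0.97). For AGAP006028-RC they were AGAP029920-RA and AGAP005681-RA (both r = 0.95). GABA-B-R1 came closest to AGAP011318-RA (r = 0.92) and AGAP005034-RA (r = 0.87), and GABA-B-R2 to AGAP008348-RA (r = 0.91) and AGAP000965-RA (r = 0.89).

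For GABA-B-R3 the closest were AGAP000833-RB (r = 0.86) and AGAP002787-RA (r = 0.84), and AGAP000038-RA ranked 4 for it (r = 0.84), while GABA-B-R3 ranked 189 for AGAP000038-RA. For AGAP000039-RA the highest values were lower, at 0.62 for AGAP007315-RA and 0.61 for AGAP008109-RC. The measure pools both sexes, so it can be low where the relation differs between them. For AGAP000039-RA and GABA-B-R3 the pooled r was 0.27, against 0.76 in males and -0.36 in females. The pooled values describe likeness over libraries that share sex, depth and opsin gradients.

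The other genes filed under GABA receptor activity also had calls by sex, as had 67.2% of all transcripts tested. AGAP011349-RA was lower in males, with 15.1 ± 6.84 normalised counts (n = 17) against 37.5 ± 25.1 (n = 18), a log2 fold change of -1.25 (edgeR adjusted p = 0.00235). Of 7 transcripts of AGAP005599, 6 were tested, 4 were higher and 1 lower in males. Of 11 nicotinic acetylcholine receptor transcripts, the related family of ion channels opened by acetylcholine, all 11 were called. Of these, 2 were higher and 9 lower in males, with a median log2 fold change of -1.17. Over all transcripts, 33.5% were called as higher and 33.7% as lower in males. The part of the opsin level in these differences was not tested. None of these transcripts was called for time in either sex by edgeR, against 1.67% of all transcripts in males and 1.23% in females. At an unadjusted p under 0.05 edgeR picked 0 of the nicotinic transcripts in either sex, against 9.25% of all transcripts in males and 9.09% in females.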

How the data were processed

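RNA was sequenced from JO pools with a kit that does not mark strand (SMART-Seq v4), so reads of overlapping antisense genes cannot be told apart. The authors deposited Kallisto estimated counts per transcript against the VectorBase transcript set, not normalised, for all 36 libraries; estimated counts were rounded to whole numbers before testing. Isoforms share reads, which Kallisto divides between them. Tests used edgeR 4.0.16 in R 4.3.3: filterByExpr on the groups, TMM factors, quasi-likelihood F-tests, Benjamini-Hochberg adjustment over all transcripts and a threshold of 0.05. Isoform use was tested with diffSpliceDGE and permutation tests used 100000 resamples. DESeq2 1.42.0 gave size factors and alternatives, and Python 3.11.15 with scipy 1.17.1 the rest. The tests were also run on simulated counts with known changes. These were drawn without an opsin gradient or replicate structure, which that check therefore does not cover. Libraries are separate pools, and p-values measure the spread between pools. Alternatives were another scaling, filter or tool, the replicate block, the opsin covariate, and each library left out. Libraries of a group differed by more than sampling noise, so none was counted as a copy. The members, lists and tests were chosen with earlier results of these data known. Every member was named; other genes were the rest of the GABA receptor activity category, the nicotinic subunits as counts and the 2 closest transcripts by correlation. The reference table paired no names with these identifiers, so genes of GABA synthesis and transport were not used here.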

Additional observations from a re-analysis of the deposited data

Results flagged for a closer look

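A male ZT12 library, set aside by the authors, entered no comparison, and 7 of the 8 GABA receptor transcripts had more than 3 estimated counts in it. They had 15.9 for AGAP006028-RA, 373 for AGAP006028-RB, 459 for AGAP006028-RC, 32.0 for AGAP000038-RA, 122 for AGAP010281-RA (GABA-B-R1), 777 for AGAP004595-RA (GABA-B-R2) and 40.0 for AGAP009514-RA (GABA-B-R3), while AGAP000039-RA had 0. Of these, GABA-B-R1 had 9.08 CPM, against 72.7 to 99.9 in the 17 other male libraries. AGAP000038-RA, at 2.38 CPM, also lay under the lowest of the other males (3.64), and the 5 other transcripts with counts lay within the males' range. The share of all transcripts outside the males' range in this library was not computed, so these values are not shown to be particular to the 2 receptors. The authors describe the library as of low quality, with very low mechanosensory genes. The library held 13439821 estimated counts in all and 0.940% opsin counts, and 10294 of its transcripts had at least 1 count, against 12112 or more in every other library.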

How the results depend on the processing

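Counts of members called did not move by more than 1.5 times except as follows. For the sex difference, 5 members were called, 8 with total counts only and 1, AGAP000039-RA, with the opsin covariate. Total counts moved the median over all transcripts to 0.52 (log2), and calls over all transcripts from 49.9 to 74.2% higher in males. AGAP006028-RB was then 0.46 and called (-0.061 relative to that median), and GABA-B-R1 0.59 (0.068 relative to it). The log2 fold change of AGAP006028-RC was -0.0092 with the opsin covariate. DESeq2 called 1 member for time in males, against 0. For the opsin relation in females, 0 members were called, 2 with total counts only (AGAP006028-RC and AGAP000039-RA), 2 with the replicate block (AGAP000038-RA and GABA-B-R1), and 0 to 1 with single libraries left out. Total counts moved the median slope over all transcripts in females to -0.44, and 4267 of the 4440 transcripts then called had negative slopes. Relative to that median the slopes were -0.66 for AGAP006028-RC and -0.40 for AGAP000039-RA. The block called 933 transcripts instead of 465. For isoform use, 0 were called, 2 by unadjusted permutation of shares (RB and RC, whose shares nearly mirror each other), and 0 to 1 with single libraries left out. With single libraries left out, 5 to 6 members were called for sex and 6 to 10 member and time point pairs (8 with all). The labels do not say whether replicate numbers pair libraries across groups. Residuals of libraries with the same number had median correlations of 0.070, 0.022 and -0.031, against -0.030 for different numbers. These medians gave no sign of pairing but cannot exclude it. The block left 5 members called for sex and 8 pairs by time point.

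Over all transcripts, calls went from 8664 to 3967 for sex and from 641 to 152 for isoform use with the opsin covariate. Summed over time points they went from 21734 to 12208 with the discarded library included, which also gave 126 instead of 206 for time in males and 2247 instead of 114 for swarm time in males. DESeq2 called 633 for time in males, 650 instead of 151 in females, and 82 instead of 1 for the interaction, which had 3 with total counts, 2 with the opsin covariate and 0 with the block or with the discarded library. Total counts gave 116 instead of 204 for swarm time in females and 285 instead of 169 and 4440 instead of 465 for the opsin relation in males and females, the last of which had 933 with the block. The causes of these shifts were not tested. AGAP006028-RA had 3 or fewer estimated counts in most libraries, so its values are the least precise of the members.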
